A study of Homo sapiens with 42 samples.

Results

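POLR3G encodes the form of the RNA polymerase III (Pol III) subunit RPC7 that is typical of stem and tumour cells, and an antisense oligonucleotide (ASO) against it was set against a scrambled ASO in HEK293T. Of the 42 libraries of the series, 6 belonged to this comparison: 3 from cells given the POLR3G ASO and 3 from cells given the scrambled ASO, each at 200 nM for 48 h. These libraries were grouped by their labelled treatment, dose and time and not by a measured value. The comparison itself and the gene lists were chosen with earlier results of these data known. HEK293T is a human embryonic kidney line that carries the SV40 large T antigen, and both oligonucleotides were delivered with the same lipid reagent. The labels give neither the sequence nor the chemistry of the ASOs. Libraries were stranded and made from polyadenylated RNA. At the same dose and time, 3 libraries with a POLR3G siRNA and 3 with a control siRNA served as a second look at POLR3G depletion. MAF1, a regulator of Pol III, was also lower with that siRNA, as given below. The comparison asks what follows in the messenger RNA of a cell when an oligonucleotide lowers this Pol III subunit.

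Transcription by Pol III yields tRNAs, 5S rRNA, U6 snRNA and other short RNAs, none of which is polyadenylated, so its own products are not read out in these libraries. It is brought to tRNA and 5S genes by TFIIIC and TFIIIB, and to the U6 type of promoter by SNAPc and a TFIIIB that contains BRF2. RPC7 sits in a subcomplex with RPC3 and RPC6 that takes part in initiation, and its paralog RPC7-like, encoded by POLR3GL, is the form of most adult tissues. What the libraries report is the messenger RNA of the machinery itself and of all other genes.

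The libraries held 32705684 to 35035342 estimated reads with the POLR3G ASO and 37759087 to 37929970 with the scrambled ASO. Of those, 9.43% to 9.54% with the POLR3G ASO and 8.57% to 8.64% with the scrambled ASO lay on transcripts that the annotation used here does not name, and these entered no test. The 6 libraries separated by treatment on a first principal component that held 78.8% of the variance, and none stood apart from its group. Of the 12 HEK293T-associated markers, abundant ones such as VIM, NEFM, CDH2, LIN28B and SALL1 were present in every library. The summed level of the list was 1163 to 1184 CPM with the POLR3G ASO and 1289 to 1308 CPM with the scrambled ASO. By the test given below 4 of the 12 were called higher and 6 lower. Less abundant members moved both ways. PAX2 measured 2.26 to 3.03 against 4.71 to 6.49 CPM and LHX1 0.21 to 0.59 against 0.60 to 1.90 CPM. PPP2R2B measured 3.73 to 5.22 against 0.12 to 0.33 CPM. CPM are estimated counts scaled to a library size corrected by TMM, which sets libraries to a common scale on the assumption that most genes did not change.

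POLR3G itself, on chromosome 5 (chr5:90471748-90514553, plus strand, GRCh38), measured 10.6, 6.72 and 8.38 CPM with the POLR3G ASO, against 28.4, 21.4 and 22.5 CPM with the scrambled ASO. The groups did not overlap, and the means were 8.57 ± 1.95 and 24.1 ± 3.79 CPM (SD, n = 3 each). It fell by 1.49 on the log2 scale (SE 0.16, adjusted p = 3.48e-05 by edgeR's quasi-likelihood test with Benjamini-Hochberg adjustment, which is the test behind every adjusted p and call below unless another is named). Once effective transcript length was taken into account the log2 fold change was -0.91.

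Across the transcriptome the change was broad and mostly small. Of 17098 genes tested, 11713 (68.5%) passed an adjusted p under 0.05, 5890 of them (34.4% of those tested) higher with the POLR3G ASO and 5823 (34.1%) lower. Past 2-fold the balance was uneven: 2498 genes rose and 214 fell by more than that. The direction depended on the level of a gene. Among protein-coding genes with a mean under 0.5 CPM, 54.9% of 791 were called higher and 3.16% lower, whereas among the 2256 with at least 100 CPM, 26.0% were higher and 53.1% lower. A gene near the minimum for testing can pass it through its higher group alone, so the low levels carry a lean that the filter helps to set. With library totals in place of TMM the split was 7172 higher and 4241 lower. Fitted by themselves, the 11475 genes averaging at least 5 CPM gave 4019 higher and 4023 lower, while in the fit of all genes those at that level gave 3078 higher and 5226 lower. The lean of well expressed genes toward lower values therefore depends on the scaling. Small falls of well expressed genes are read below against the median of protein-coding genes with at least 5 CPM, which was -0.09 on the log2 scale.

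**Figure D1:**
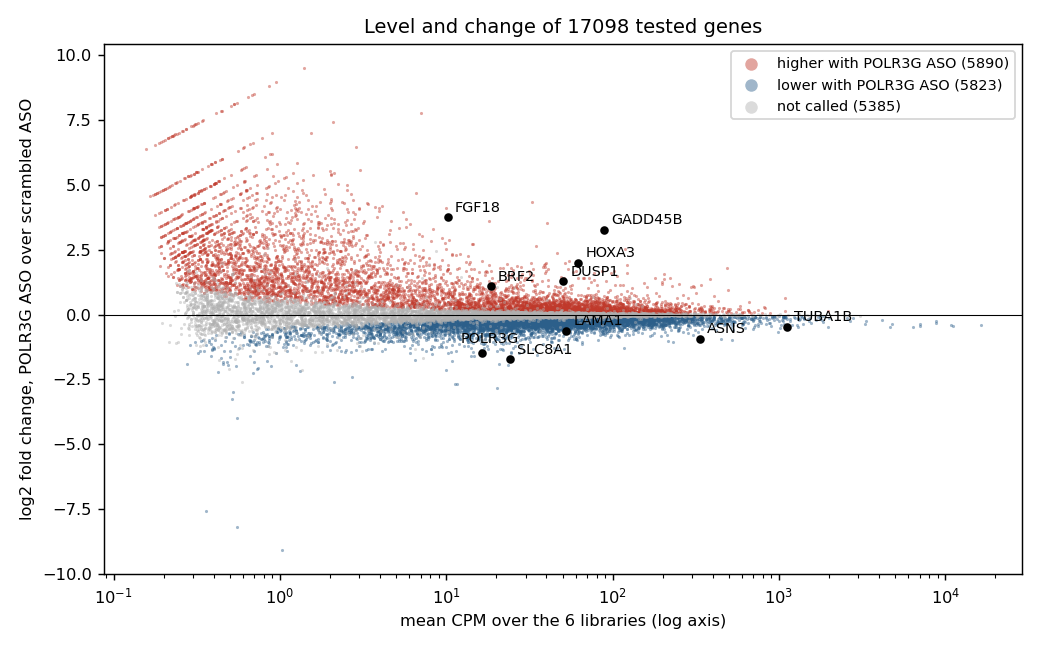
Each point is 1 of 17098 tested genes, with its mean level over the 6 libraries in CPM (x, log axis) and its log2 fold change of the POLR3G ASO over the scrambled ASO (y). The 5890 genes called higher spread to large folds at low levels, while most of the 5823 called lower lie close below 0.

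The largest rises among protein-coding genes averaging at least 5 CPM were mostly in genes that scrambled ASO cells hardly expressed. Under the naming rule given below, PSG4 led at 25.7-fold, followed by OR5AU1 at 17.3-fold and GARIN4 at 15.4-fold. FGF18, a secreted fibroblast growth factor, measured 19.6, 17.2 and 20.2 CPM with the POLR3G ASO, against 0.90, 1.64 and 1.64 CPM with the scrambled ASO, a 13.6-fold difference (log2 fold change 3.76 ± 0.18 SE). GADD45B, a stress and cytokine-induced gene of the GADD45 family, was the most abundant of the top risers, with 157.5, 149.9 and 177.9 CPM against 14.6, 19.2 and 16.01 CPM with the scrambled ASO. In both genes every library with the POLR3G ASO lay far above every library with the scrambled ASO. EID3 rose 12.9-fold, SCUBE2, which encodes a secreted factor that releases Hedgehog ligands, 11.2-fold, MSH4, a meiotic mismatch repair homologue, 10.6-fold and LCT, which encodes lactase, 9.83-fold. EID3 lies on the same strand inside TXNRD1, so its reads may be shared with that gene.

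The largest falls were smaller than the largest rises. Under the same naming rule STUM fell furthest, to 3.03 ± 0.28 CPM with the POLR3G ASO, against 19.4 ± 0.76 CPM with the scrambled ASO (SD, n = 3 each), a 6.39-fold difference. SLC8A1, the cardiac-type sodium-calcium exchanger, spans 513.8 kb (chr2, GRCh38) and measured 11.5, 12.3 and 9.98 CPM with the POLR3G ASO, against 37.5, 36.5 and 37.0 CPM with the scrambled ASO. Its log2 fold change was -1.72 ± 0.07 SE (adjusted p = 1.48e-07, edgeR). SDK2, a synaptic adhesion molecule with a span of 309.7 kb, fell to 17.8 ± 2.15 CPM with the POLR3G ASO, against 52.2 ± 2.29 CPM with the scrambled ASO (SD, n = 3 each). RORB, an orphan nuclear receptor, fell to 14.4 ± 0.71 CPM, against 40.6 ± 1.08 CPM. ACADL, the long-chain acyl-CoA dehydrogenase, fell by 1.74 and CRAT, carnitine acetyltransferase, fell by 1.53 on the log2 scale. SLC6A9, the glycine transporter GLYT1, measured 15.1, 9.62 and 14.1 CPM, against 34.7, 35.9 and 37.4 CPM with the scrambled ASO. MED12, which belongs to the kinase module of Mediator, fell to 9.63 ± 0.96 CPM, against 37.2 ± 3.56 CPM. EHMT2, an H3K9 methyltransferase, had an uneven group, with 21.1, 1.36 and 3.26 CPM with the POLR3G ASO, against 35.9, 30.9 and 31.2 CPM with the scrambled ASO, and an adjusted p of 0.0283 (edgeR). Leaving out any 1 library other than the first with the POLR3G ASO ended that call, and leaving out that first library gave a log2 fold change of -3.83.

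The rest of the Pol III machinery did not move as a block. Of 18 subunits tested, 7 were higher and 6 lower, including POLR3G, with a median log2 fold change of -0.01. POLR3GL fell by 0.44 (SE 0.06), while CRCP, the RPC9 subunit, rose to 61.7 ± 1.20 CPM with the POLR3G ASO, against 45.1 ± 1.54 CPM with the scrambled ASO (SD, n = 3 each). The initiation factors split 5 to 5 among 17 tested. Those that rose most belong to the U6 type of promoter. SNAPC5, a SNAPc subunit, measured 48.9, 48.1 and 49.5 CPM, against 21.2, 22.1 and 21.7 CPM with the scrambled ASO, a log2 fold change of 1.17 ± 0.04 SE. BRF2 measured 24.2, 24.9 and 26.3 CPM, against 11.2, 12.8 and 11.4 CPM, a log2 fold change of 1.09 ± 0.07 SE. In both genes every treated library lay above every scrambled library. GTF3C1, the largest TFIIIC subunit, fell by 0.33, and with it GTF3C3 and GTF3C5 were called lower while GTF3C4 was called higher. SNAPC5 shares its strand with an annotated antisense-type gene and a miRNA gene, so part of its reads could belong there.

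Among 37 genes of tRNA processing and modification, 17 were higher and 9 lower (median 0.14). TRNT1, which adds the CCA end to tRNAs, measured 311.6, 320.0 and 326.2 CPM with the POLR3G ASO, against 115.5, 122.1 and 124.0 CPM with the scrambled ASO. That rise sat on transcripts not annotated as coding: when only transcripts of the protein-coding type were summed, TRNT1 was lower, with a log2 fold change of -2.27.

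HOX genes, which encode the homeodomain factors that set position along the body axis, rose across all 4 clusters. All 39 genes were tested, 36 were called higher and 1 lower, and the median log2 fold change was 0.95. The summed level of the family was 2122 to 2227 CPM with the POLR3G ASO and 1169 to 1193 CPM with the scrambled ASO. The HOXA cluster rose most in total, to 1045 CPM against 430.2 CPM with the scrambled ASO, with all 11 genes higher and a median of 1.51. HOXB summed to 437.8 CPM against 305.7 CPM (8 of 10 higher, median 0.98), HOXD to 451.6 against 289.1 CPM (9 of 9 higher, median 0.84) and HOXC to 223.4 against 158.8 CPM (8 of 9 higher, median 0.69).

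With the 4 clusters pooled, genes at the 3′ end, which are used in anterior parts of the body, showed larger log2 fold changes than those at the 5′ end. Position was not compared within each cluster, and the clusters differ in their medians, as given above. Paralogue groups 1 to 4 had a median of 1.26 and 9 of 12 genes past 2-fold, groups 5 to 8 a median of 1.18 and 8 of 11 past 2-fold, and groups 9 to 13 a median of 0.63 and 2 of 16 past 2-fold. HOXA2 (chr7, GRCh38, 2.458 kb) measured 71.6, 71.0 and 78.4 CPM with the POLR3G ASO, against 5.49, 6.72 and 7.02 CPM with the scrambled ASO, an 11.5-fold difference. HOXA3 rose 4.03-fold and HOXA4 5.14-fold. HOXA3 to HOXA6 overlap on the same strand in the annotation, so reads between them are less certain. Those past 2-fold in groups 9 to 13 were HOXA9 and HOXD12. HOXD12, chosen here after its values were seen, held 8.10, 7.77 and 8.41 CPM against 0.72, 0.96 and 1.13 CPM. HOXB1, also chosen after its values were seen, held 4.65, 3.45 and 4.27 CPM with the POLR3G ASO, against 0, 0.0597 and 0 CPM with the scrambled ASO. HOXC4 was the member called lower, at 42.7 ± 2.39 CPM against 46.7 ± 0.76 CPM (SD, n = 3 each), and that call was lost in 6 of 16 alternatives, library totals in place of TMM among them. HOXB13, at -0.14, and HOXB8, at 0.14 (log2 fold changes), were not called, though HOXB8 was called higher in 7 alternatives and HOXB13 lower in 2.

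**Figure D2:**
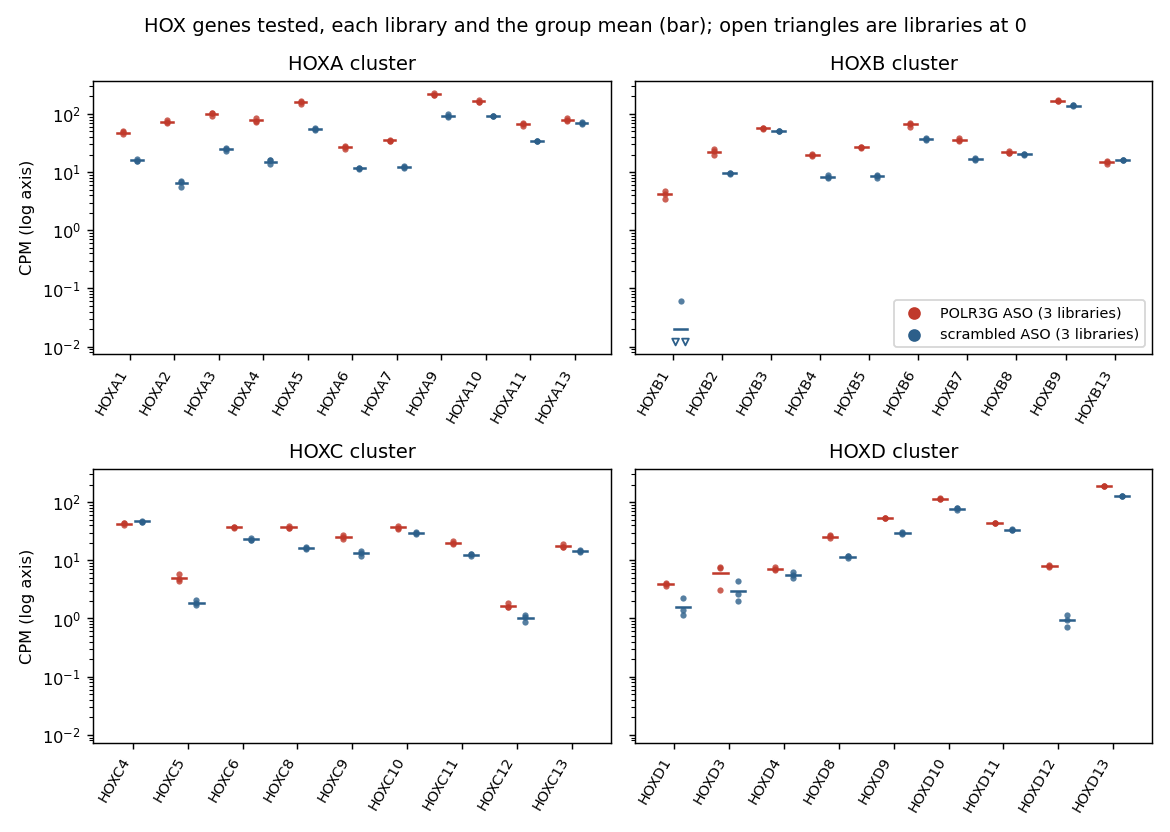
Each panel is a HOX cluster, with its genes in paralogue order (x) and CPM on a log axis (y). Points are single libraries, the POLR3G ASO left and the scrambled ASO right, with a bar at the mean and open triangles for libraries at 0. HOXA2 is at 71.0 to 78.4 CPM against 5.49 to 7.02 CPM, while HOXC4 averages 42.7 against 46.7 CPM.

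Genes for replication-dependent histones, whose messages normally end in a stem-loop and carry no poly(A) tail, rose in these poly(A)-selected libraries. Of 43 tested (59 matched), 37 were higher and 2 lower, with a median log2 fold change of 1.14. Of those 37, 13 reached the minimum for testing only with the POLR3G ASO libraries, so the filter sets part of this count. In the fit of genes averaging at least 5 CPM, 10 were tested, 8 of them higher and 2 lower. The summed level of the 59 genes was 235.3 to 259.4 CPM with the POLR3G ASO and 104.9 to 110.9 CPM with the scrambled ASO. The 11 replacement histone genes, which make ordinary polyadenylated messages, split 3 higher and 8 lower. MACROH2A2, a macroH2A variant histone, fell to 39.3 ± 1.41 CPM, against 58.4 ± 0.12 CPM (SD, n = 3 each), a log2 fold change of -0.57.

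Among the transcripts of these genes that hold a stem-loop, most reads lay on those that run on past it. The stem-loop was searched in the GENCODE release 29 transcripts and is shown here with 5 bases on either side, the paired bases in capitals and the loop between them in lower case.
H2BC21: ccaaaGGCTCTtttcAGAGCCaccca
H3C6: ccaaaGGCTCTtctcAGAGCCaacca
H2BC5: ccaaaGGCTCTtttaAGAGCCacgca
H4C8: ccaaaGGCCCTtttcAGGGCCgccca
The genes lie at chr1:149884459-149886652 (H2BC21, minus strand), chr6:26224199-26227473 (H3C6, plus), chr6:26158146-26171349 (H2BC5, plus) and chr6:26277609-26285638 (H4C8, minus) in GRCh38. The H2BC21 transcript continues for 1729 bases after the stem-loop and measured 22.3 CPM with the POLR3G ASO and 4.75 CPM with the scrambled ASO (means of 3). The H3C6 transcript continues for 1862 bases and measured 13.2 against 3.51 CPM. H4C8 has both kinds of end: the transcript that continues for 1655 bases measured 4.05 against 1.06 CPM, and the one that stops 18 bases after the stem-loop 0.618 against 0.650 CPM. Transcripts that stop near the stem-loop rose in other genes, among them that of H2BC5 stopping 39 bases after it, with 5.30 against 2.09 CPM.

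Over all 56 tested transcripts of these genes, 21 held a stem-loop. The 14 that continue for more than 100 bases summed to 76.8 CPM with the POLR3G ASO and 23.2 CPM with the scrambled ASO (median log2 fold change 1.71). The 7 that stop within 100 bases summed to 11.4 and 4.89 CPM (median 1.27), and the 35 annotated without a stem-loop had a median of 1.05. The median was above 0 for each of these kinds of transcript. At gene level H2BC21 measured 21.7, 21.3 and 24.5 CPM, against 4.62, 4.51 and 4.85 CPM. H2BC12, annotated here without its stem-loop, and H4C14 were the 2 genes called lower, and the call for H4C14 was lost once effective transcript length was taken into account. H4C14 and H4C15 are near-identical copies, so reads between them are uncertain. HIST2H4B-202 of H4C15, annotated without a stem-loop, measured 59.4 against 15.1 CPM and holds a large part of the summed rise of the histone genes. HIST2H4A-204 of H4C14 measured 0 against 8.29 CPM. With coding transcripts only, H4C15 was not called (log2 fold change 0.66).

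Immediate early genes, which encode transcription factors and phosphatases induced within minutes of a signal, were higher after 48 h. Of 38 tested, 29 were higher and 2, DUSP4 and MYC, lower, with a median log2 fold change of 0.48 and a summed level of 1332 to 1381 CPM with the POLR3G ASO and 867.6 to 894.4 CPM with the scrambled ASO. DUSP1, which switches off MAP kinases, measured 70.7, 69.3 and 74.1 CPM, against 29.2, 29.5 and 29.2 CPM. KLF6 rose 2.05-fold, IER2 1.90-fold and ATF3 1.88-fold. The AP-1 subunits JUN and FOS, chosen here after their values were seen, rose 1.68-fold and 1.46-fold.

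The cAMP response element TGACGTCA, a site for CREB and ATF family factors, was searched on both strands of the RefSeq promoter windows (GRCh38.p14), which run from 250 bases before to 50 after each start. It was present in 5 of the 29 early genes with a window, against 649 of 35116 windows of all genes (1.85%), and is shown in capitals with its flanking bases for those 5, chosen for the element and not for their change.
DUSP1: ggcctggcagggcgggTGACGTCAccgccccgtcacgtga
JUND: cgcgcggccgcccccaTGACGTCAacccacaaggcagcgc
MAFF: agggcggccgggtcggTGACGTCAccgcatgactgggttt
ZFP36L1: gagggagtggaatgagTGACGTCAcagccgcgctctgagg
DUSP8: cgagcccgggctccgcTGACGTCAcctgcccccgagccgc
In GRCh38.p14 the stretches lie at chr5:172771297-172771336 (DUSP1, minus strand), chr19:18281799-18281838 (JUND, minus), chr22:38201924-38201963 (MAFF, plus), chr14:68793445-68793484 (ZFP36L1, minus) and chr11:1572366-1572405 (DUSP8, minus). The windows put the element 125 bases before the start in DUSP1, 200 in JUND, 54 in MAFF, 52 in ZFP36L1 and 118 in DUSP8. JUND, MAFF and ZFP36L1 were called higher with log2 fold changes of 0.50, 0.44 and 0.46, below the 1.28 of DUSP1. DUSP8 measured 0.21, 0.25 and 1.04 CPM, against 1.62, 0.36 and 0.77 CPM, and was not called. JUND, MAFF, ZFP36L1 and DUSP8 were named after their values were seen. A match is a run of letters and not a measured site.

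Genes of the NF-kB pathway rose in part. Of 18 tested, 10 were higher and 3, TRAF1, TRAF2 and NFKB1, lower (median 0.58), with a sum of 404.0 to 411.9 CPM against 282.4 to 287.3 CPM. REL measured 228.8, 235.6 and 231.9 CPM, against 123.6, 130.5 and 137.9 CPM. The chemokine gene CCL5 rose 2.41-fold, and the feedback inhibitors NFKBIA and TNFAIP3 rose 1.44-fold and 1.56-fold, while NFKB1, which encodes p105, fell to 21.6 ± 1.21 CPM, against 32.6 ± 1.57 CPM. Of 8 inhibitors of cyclin-dependent kinases 3, CDKN2B, CDKN1B and CDKN2C, were higher and 1, CDKN3, lower. The share higher, 37.5%, lies near the 34.4% of all genes tested, and the median log2 fold change was 0.09. CDKN2B (p15) stood at 53.4, 53.4 and 54.4 CPM against 21.3, 21.5 and 22.5 CPM, and CDKN1B (p27) rose 1.74-fold. Heat shock genes were higher in 12 of 17, with HSPA8 1.57-fold and DNAJB1 1.54-fold higher, and HSPB1 and HSP90AB1 lower.

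YAP and TEAD targets split, with 10 of 24 higher and 12 lower. ANKRD1, a classical target, rose to 9.55 ± 0.44 CPM, against 1.41 ± 0.19 CPM with the scrambled ASO (SD, n = 3 each).

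Genes of protein synthesis did not move together. Ribosome biogenesis factors were higher in 33 of 43 tested, with 4, NOP14, WDR12, NHP2 and NPM1, lower and a median of 0.24. UTP15 measured 76.5, 77.1 and 79.4 CPM with the POLR3G ASO, against 51.5, 52.0 and 51.2 CPM with the scrambled ASO, and MRTO4 and PPAN rose 1.63-fold and 1.49-fold. WDR74 rose 5.72-fold, but it overlaps the U2 snRNA locus RNU2-2P on the same strand, and the rise lay mostly on the short transcript WDR74-208, at 142.9 against 7.44 CPM, and also on the 1736-base WDR74-204, at 33.7 against 4.16 CPM.

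Ribosomal protein genes were lower in 62 of 77 tested and higher in 3, RPS26, RPS27 and RPS29, with a median of -0.11. That median lies close to the -0.09 of all well expressed protein-coding genes. With library totals in place of TMM 20 were lower and 11 higher (median -0.02), and the genes took 5.83% to 5.91% of the reads with the POLR3G ASO and 5.92% to 6.06% with the scrambled ASO. RPL3 stood out with 1091, 1103 and 1083 CPM, against 1511, 1507 and 1510 CPM (log2 fold change -0.47 ± 0.02 SE). Ribosomal protein messages are known to start with a C followed by a run of pyrimidines, the TOP motif. In the RefSeq windows a C at the annotated start followed by at least 4 C or T was found in 45 of 61 ribosomal protein genes (73.8%), against 1429 of 35116 windows (4.07%). The starts below have 10 bases before the start site and the motif in capitals. They are shown so that RPL3, which holds none by this rule, can be set beside genes that do. The pyrimidine run at the annotated start of RPL3 is shorter than the rule asks.
RPL3: gccgaccggcctctaccggcgggatttg
RPL36: cggcgccagcCCTTCCgccacggccgtc
RPS3: cgagccacttCCTTTCCTTTCagcggag
RPLP1: ggcgcgagagCCCCTTTCCTCagctgcc
EIF4B: tcatccgggtCTTTTgcgttctctttcc
EIF2S3: gatttccttcCTCTTTTggcaacatggc
The stretches lie at chr22:39319606-39319633 (RPL3, minus strand), chr19:5690285-5690312 (RPL36, plus), chr11:75399508-75399535 (RPS3, plus), chr15:69452808-69452835 (RPLP1, plus), chr12:53006446-53006473 (EIF4B, plus) and chrX:24054946-24054973 (EIF2S3, plus) in GRCh38.p14. RPL36 fell by 0.21, RPLP1 fell by 0.19 and RPS3 fell by 0.16 on the log2 scale, and with library totals the 3 log2 fold changes were -0.12, -0.10 and -0.07 in that order. These 3 genes were chosen for their motif after their values were seen. RPS15, RPS28, RPL10A and RPS4X, also chosen after their values were seen, hold no motif by this rule. Their log2 fold changes were -0.22, -0.20, -0.18 and -0.14, in the same range as genes that hold it. In RPS28 and RPL10A a pyrimidine run begins just after the annotated start, which the rule does not count. The annotated start may differ from the start used in these cells, so genes with and without the motif cannot be told apart with certainty. The translation factors EIF4B and EIF2S3, which hold the motif as 8 of 29 factors with a window do, had log2 fold changes of -0.43 and -0.42. Translation factors together gave 8 higher and 19 lower of 37, and 17 higher and 13 lower with library totals.

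Genes that charge tRNAs and import amino acids were lower. Of 20 cytosolic tRNA synthetase genes 15 were lower and 0 higher, with a median of -0.32. With library totals 12 were lower and 2 higher. GARS1, the glycyl-tRNA synthetase, measured 218.7, 229.3 and 215.9 CPM, against 391.3, 374.7 and 391.9 CPM, and AARS1 fell 1.77-fold. Of 19 amino acid transporter genes 12 were lower and 1, SLC43A2, higher, with a median of -0.50. SLC38A1, a glutamine transporter, measured 358.4, 362.4 and 331.5 CPM, against 701.1, 691.0 and 704.6 CPM, SLC7A1 fell 1.58-fold, and SLC7A5 fell by 0.58 on the log2 scale.

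The known targets of ATF4, the transcription factor of the amino acid response, moved in both directions. Of 29 tested, 10 were higher and 15 lower (median -0.30). The lower ones include enzymes of amino acid synthesis. ASNS, asparagine synthetase, measured 232.0, 236.6 and 221.2 CPM, against 437.8, 420.1 and 452.1 CPM. The serine synthesis genes PSAT1 and PHGDH fell 1.93-fold and 1.61-fold. The higher ones include stress regulators that other pathways also induce: PPP1R15A (GADD34) measured 109.0, 109.3 and 113.0 CPM, against 50.4, 50.8 and 48.1 CPM, and DDIT3 (CHOP), chosen here after its values were seen, 46.4, 46.7 and 51.1 CPM, against 26.3, 23.2 and 26.7 CPM.

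Genes of the matrix and the cytoskeleton were lower. Of 36 extracellular matrix genes and receptors 28 were lower and 4, COL6A3, COL12A1, THBS1 and ITGA1, higher, with a median of -0.48 and a sum of 1741 to 1914 CPM with the POLR3G ASO against 2392 to 2477 CPM with the scrambled ASO. COL5A1 measured 13.6, 12.9 and 13.3 CPM, against 26.6, 26.4 and 24.4 CPM. Basement membrane chains fell together, with LAMB1 at 71.3 ± 4.62 against 123.0 ± 2.94 CPM, LAMA1 at 41.5 ± 0.86 against 63.9 ± 1.61 CPM and COL4A5 at 78.2 ± 3.69 against 120.2 ± 3.31 CPM (SD, n = 3 each). COL6A3 rose to 12.1 ± 0.51 CPM, against 4.52 ± 1.21 CPM. Of 26 actin and tubulin genes 23 were lower and 1, TUBB3, was higher (median -0.26). TUBA1B measured 936.1, 932.7 and 952.0 CPM, against 1304, 1315 and 1274 CPM, ACTG1 fell 1.32-fold, and TMSB10 fell by 0.48 on the log2 scale. With library totals 18 of the actin and tubulin genes and 26 of the matrix genes were lower.

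Genes of energy metabolism and division were lower too. All 13 messages of mitochondrial DNA were lower (median -0.38), with MT-CYB at 5520, 5272 and 5197 CPM against 7503, 7547 and 7108 CPM, and the mitochondrial genes took 7.67% to 7.88% of reads against 9.07% to 9.86%. Glycolysis and hypoxia genes were lower in 20 of 28 (median -0.25), with GAPDH at 1221 ± 1.38 CPM against 1549 ± 12.2 CPM and ALDOA 1.33-fold lower. Nuclear genes of oxidative phosphorylation were lower in 35 of 48 (median -0.16) and G2/M genes in 29 of 37 (median -0.18). With library totals the first of these lists had 22 members lower and 8 higher, and the second 19 lower and 7 higher.

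**Figure D3:**
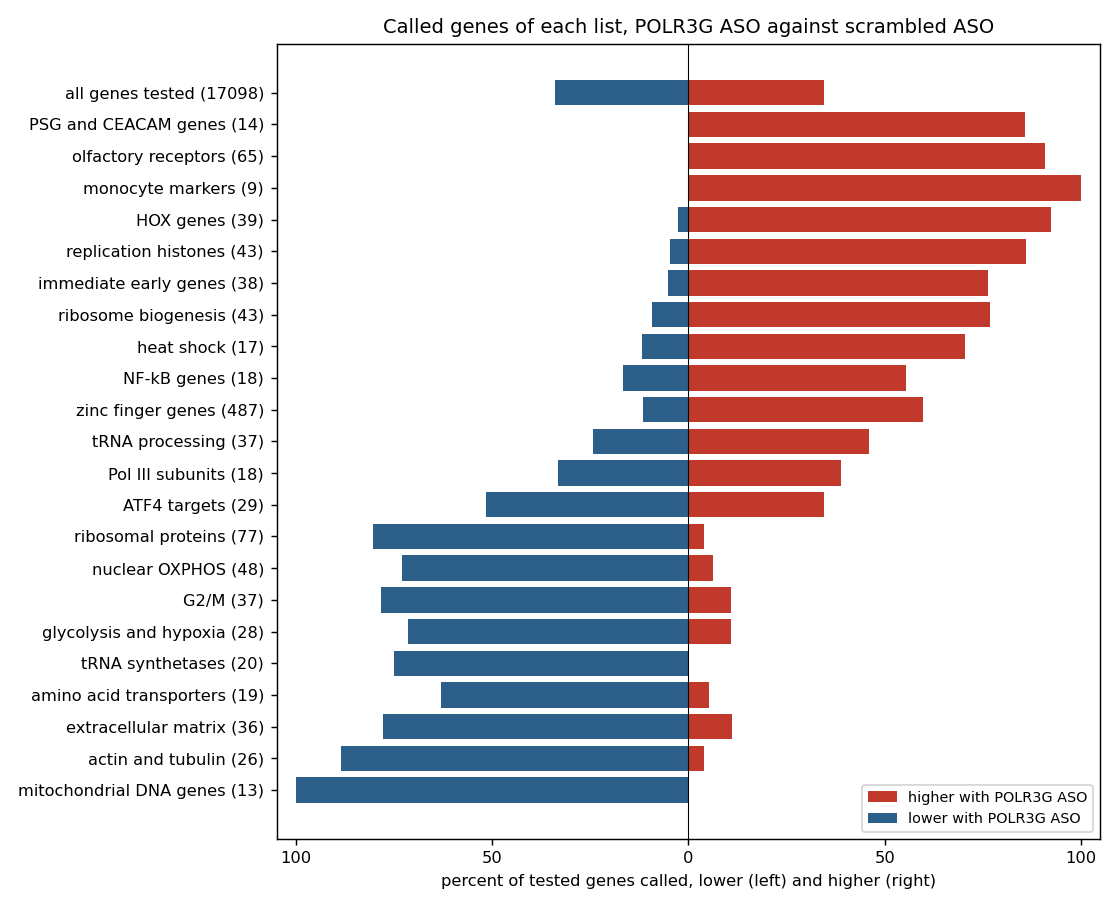
Bars give, for each gene list with its number of tested genes, the percent called higher with the POLR3G ASO (right) and lower (left), with all tested genes in the top row at 34.4% and 34.1%. HOX genes, replication histones and early genes lean right, while actin and tubulin, mitochondrial DNA genes and the extracellular matrix lean left.

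Families of genes that HEK293T hardly expresses were called higher. Of 389 olfactory receptor genes 65 reached the minimum for testing, and 59 of these were higher and 0 lower, with a sum of 566.9 to 610.6 CPM over the family against 191.2 to 201.0 CPM. Pregnancy-specific glycoproteins and related CEACAM genes, typical of placenta, were higher in 12 of 14 tested, all but CEACAM1 and CEACAM8, with a sum of 47.7 to 54.8 CPM against 8.97 to 10.2 CPM. Of 20 monocyte markers 9 were tested and all 9 were higher, with a sum of 45.6 to 48.1 CPM against 9.14 to 10.3 CPM. Of those 9, 6 reached the minimum of 0.302 CPM in 3 libraries only with the POLR3G ASO libraries, as did 9 of the 12 placental genes, 18 of the 59 olfactory receptors, 4 of 6 kidney tubule and 3 of 4 hepatocyte markers counted as higher here, so the filter sets part of these counts. CD68 measured 24.9, 25.5 and 25.0 CPM, against 3.72, 3.53 and 4.11 CPM, and ITGAM and MRC1, chosen here after their values were seen, rose to 5.16 ± 0.12 and 4.68 ± 0.57 CPM, against 0.33 ± 0.05 and 0.37 ± 0.06 CPM. Of the 20 monocyte markers 1, TYROBP, was at 0 in all 6 libraries. Kidney tubule markers were higher in 6 of 8 tested, while LRP2, the most abundant of them, fell to 20.8 ± 1.49 CPM, against 35.5 ± 1.22 CPM. Hepatocyte markers were higher in 4 of 5 tested, with a sum of 21.7 to 25.8 CPM against 9.50 to 10.4 CPM, neuronal markers gave 6 higher and 6 lower of 24, and germline markers 3 higher and 2 lower of 6. In bulk RNA, a change in the number of cells of a kind and a change in RNA per cell cannot be told apart.

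Several other classes of genes were more often higher than lower. Protein-coding genes with a single exon in every transcript were higher in 56.1% of 355 and lower in 13.8%, against 31.0% and 37.9% of 14964 genes with more exons. Of 1000 processed pseudogenes tested, 694 were higher and 29 lower, although their reads are hard to tell from those of their parent genes. Long noncoding types were higher in 33 and lower in 6 of 61 tested. Zinc finger genes were higher in 291 of 487 (57 lower, median 0.29) and protocadherins in 21 of 33 (PCDHGC3 and PCDHGA11 lower), with PCDHA4 at 28.9, 28.8 and 27.4 CPM against 6.51, 7.86 and 8.24 CPM. Of those 21 protocadherins, 12 reached the minimum for testing only with the POLR3G ASO libraries, as did 14 of the 291 zinc finger genes. In the fit of genes averaging at least 5 CPM, protocadherins gave 2 higher and 2 lower of 4, and zinc finger genes 270 higher and 32 lower of 393. How far the filter sets the counts of single-exon genes, pseudogenes and noncoding types was not tested. Protocadherin alpha genes share their last exons, so reads between them are uncertain. The share of reads on unnamed transcripts was also larger with the POLR3G ASO in every library, as given above, and its part in these rises was not tested.

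Genes with longer loci were lower. Among protein-coding genes with at least 5 CPM, those with a genomic span under 5 kb were higher in 34.2% and lower in 32.9% of 754, with a median log2 fold change of 0.00. Between 50 and 100 kb the median was -0.11, between 200 and 400 kb it was -0.30 with 72.3% of 667 lower, and above 400 kb it was -0.46 with 73.5% of 264 lower. The medians above 400 kb were -0.33 with effective transcript length taken into account and -0.37 with library totals. That length setting takes up shifts of length between libraries and not differences of length between genes. The longest transcript of a gene had a median of 1884 bases under 5 kb and 7129 above 400 kb. Median levels in these bins were 26.7 and 22.2 CPM. The part of transcript length and level in the trend with span was not tested. POLA1, the catalytic subunit of DNA polymerase alpha with a span of 303.1 kb, measured 100.4, 101.7 and 95.7 CPM, against 138.6, 134.3 and 136.5 CPM, and NBAS, with 394.4 kb, 24.4, 29.7 and 20.9 CPM, against 45.8, 47.2 and 43.6 CPM. With the siRNA the medians by span ran from 0.06 under 5 kb and 0.11 from 5 to 20 kb down to -0.17 above 400 kb.

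**Figure D4:**
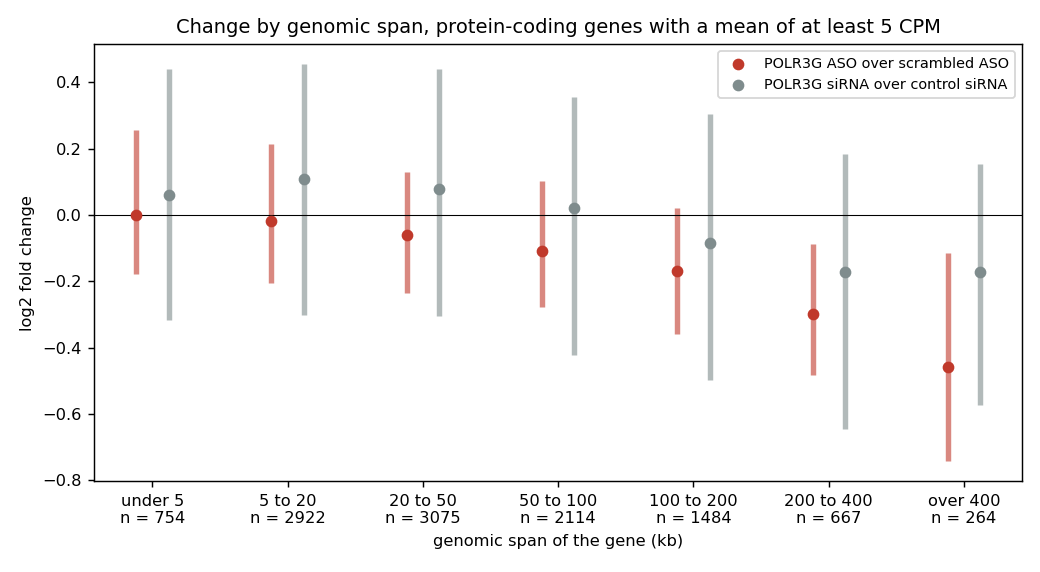
Log2 fold change (y) of protein-coding genes averaging at least 5 CPM, in bins of genomic span (x, kb, with the number of genes). Dots are medians and bars run between quartiles, for the POLR3G ASO over the scrambled ASO (left of each pair) and the POLR3G siRNA over its control (right); the ASO medians go from 0.00 under 5 kb to -0.46 above 400 kb.

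Over all transcripts tested, those annotated as noncoding were more often called higher than lower, and part of this lean was gone among better expressed ones. Of 61507 transcripts tested, 8171 (13.3%) were higher and 6946 (11.3%) lower. Leaving out any 1 of the POLR3G ASO libraries lowered the first count to between 4897 and 5146. Coding transcripts gave 4106 higher and 5807 lower of 34979 tested, retained-intron transcripts 1582 higher and 567 lower of 12802, and processed transcripts without a reading frame 1109 higher and 230 lower of 6719. Targets of nonsense-mediated decay gave 656 higher and 291 lower of 5317. Among transcripts of coding genes averaging at least 5 CPM the lean was smaller, with 431 retained-intron transcripts higher and 311 lower of 1990, beside 2035 coding ones higher and 5016 lower of 15697. In the same set processed transcripts gave 212 higher and 123 lower of 817, while targets of nonsense-mediated decay gave 164 higher and 174 lower of 959 (median log2 fold change -0.04). Retained-intron transcripts took 5.63%, 5.57% and 5.68% of matched reads with the POLR3G ASO, against 5.05%, 4.98% and 4.95% with the scrambled ASO. Coding transcripts took 87.3%, 87.5% and 87.3%, against 88.8%, 89.0% and 88.9%. Each gap between the groups exceeded the spread within them, though single transcripts carry the estimation error of Salmon, which divides reads among overlapping forms.

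Within genes, 470 of 10988 tested (4.28%) changed the balance of their transcripts, by an adjusted p under 0.05 from edgeR's transcript usage test and a share moved by at least 10 percentage points. Of these, 443 were also called by limma on the log ratio of each transcript to the rest of its gene, and the genes named next are called by both. In those 443 genes the transcript that lost most was a coding one in 86.9%, and the one that gained most was coding in 63.0%, a retained-intron form in 14.2% and a processed transcript in 12.4%. The transcript that gained was the shorter of the pair in 229 genes and the longer in 214. At gene level 107 of the 443 were not called at all.

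POLDIP3, which encodes an RNA-binding partner of mRNA export and translation, exchanged its main forms. The 2006-base POLDIP3-209 made up 68.1%, 57.6% and 63.8% of the gene with the POLR3G ASO, against 5.69%, 7.87% and 7.45% with the scrambled ASO, while POLDIP3-201 made up 10.2%, 19.2% and 15.1%, against 72.1%, 65.7% and 72.4%. The groups were far apart although the gene total was 1.08-fold higher, a change that turned to -0.11 on the log2 scale once effective length was taken into account. In RGMA, a repulsive guidance molecule, RGMA-201 held 92.1%, 88.7% and 91.8%, against 36.3%, 33.2% and 44.0%, and both it and the losing RGMA-203 are coding. WDR74-208, a form of 548 bases, held 71.4%, 71.9% and 72.6%, against 14.9%, 22.4% and 24.8%.

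In other genes the share of a coding form was lower and that of a form with a retained intron higher, which in shares of a gene does not mean that 1 form gained what the other lost. HGS, an endosomal sorting gene, had 0% in all 3 treated libraries on HGS-201, against 65.4%, 67.2% and 70.7% with the scrambled ASO, and HGS-206, with a retained intron, held 50.6%, 47.0% and 51.9%, against 10.9%, 11.4% and 10.8%. In level HGS-206 measured 7.32 against 3.16 CPM and HGS-201 0 against 19.4 CPM. SBF2-206 held 80.5%, 79.5% and 82.2%, against 17.04%, 19.3% and 18.5%, and SBF2-201 was at 0% in the treated libraries. The retained-intron form LAMA1-207 held 76.1%, 76.0% and 78.0%, against 39.5%, 37.2% and 46.0%. KMT2D, an H3K4 methyltransferase, had 0% on its full-length KMT2D-201 in the treated libraries, against 90.8%, 87.5% and 94.0%, and the shorter KMT2D-202, which is also coding, held 47.5%, 47.1% and 47.7%, against 5.32%, 4.17% and 2.80%. The level of KMT2D-202, 2.11 against 1.41 CPM, was not called different. A share of exactly 0 may be a failed estimate, and whether reads moved to unnamed transcripts was not tested. Because the forms differ in length, the gene-level fall of KMT2D (log2 fold change -2.82) came to 0.01 once effective length was taken into account.

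**Figure D5:**
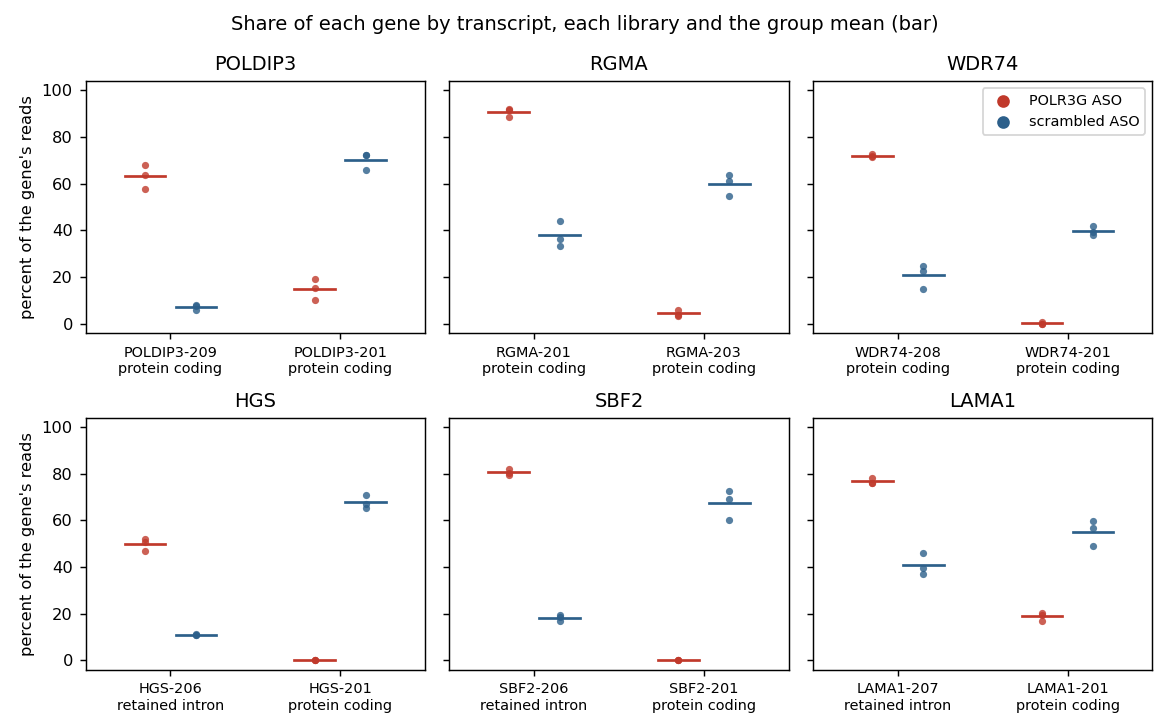
Percent of each gene's reads (y) on the transcripts that gained and lost most (x), for 6 genes. Points are libraries with a bar at the mean, the POLR3G ASO left of the scrambled ASO; in POLDIP3 the gaining form is at 57.6% to 68.1% against 5.69% to 7.87%.

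The POLR3G siRNA at the same dose and time gave a response that overlapped with that to the ASO in part. POLR3G itself had a log2 fold change of -1.49 with the ASO and -1.22 with the siRNA, and the difference of -0.27 (SE 0.25) was not called (adjusted p = 0.356, edgeR over 12 libraries). MAF1 was at -0.02 with the ASO and at -2.31 with the siRNA. That difference of 2.295 was called (adjusted p = 3.31e-12, edgeR over 12 libraries). The siRNA response thus holds a fall of MAF1 that the ASO response lacks. Of 17098 genes tested with both agents 8168 were called with both, 5330 of them (65.3%) in the same direction and 2838 in opposite directions. The difference of responses was called for 11679 of 17489 genes (66.8%), with the ASO value above that of the siRNA in 33.8% and below it in 33%. HOXA2, HOXA3 and HOXA4 rose with the siRNA too, by 1.42, 1.49 and 1.76 on the log2 scale, while the ASO values were 3.52, 2.01 and 2.36. Over the 39 HOX genes the median was 0.95 with the ASO and 1.13 with the siRNA, and the difference of responses was called higher with the ASO in 15 and lower in 19 (median -0.07). The early genes had a median of 0.48 with the ASO and of 0.05 with the siRNA, and GADD45B, at 3.28 with the ASO, was at -0.10 in the siRNA cells. The direction was shared by ASNS, at -0.93 (ASO) and -2.44 (siRNA). It was not shared by TUBA1B, at -0.47 (ASO) and 0.33 (siRNA). The agents had controls of their own, so effects of an agent and of POLR3G cannot be told apart where the responses differ.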

How the data were processed

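Polyadenylated RNA of HEK293T cells was sequenced for 151 cycles from both ends of stranded libraries. Per the submitters' processing notes, bcl2fastq 2.20, Trim Galore, Salmon and DESeq2 were used with hg38, and no other version is stated there. The deposited table lists 194142 transcripts and holds, per the file headers, Salmon's estimated counts of reads in every library. All tests were made from these. The TPM values that the authors deposited beside them, scaled for transcript length and depth, were not tested.

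Transcripts were matched by identifier to GENCODE release 29 (GRCh38), in which 158359 (81.6%) were found, and estimated counts were summed over 34318 genes and rounded. Reads on the rest entered no test. Edition and strand setting of the authors' annotation are not stated, so overlapping genes may share reads.

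The 3 libraries with the POLR3G ASO were compared with the 3 with the scrambled ASO by edgeR 4.0.16 (filterByExpr, TMM, quasi-likelihood F-test) in R 4.3.3, with Benjamini-Hochberg adjustment over all features tested and a threshold of 0.05. The standard error is the absolute log2 fold change divided by the square root of F. Transcript usage was tested with edgeR and, added after seeing the data, limma 3.58.1. The difference from the siRNA response was fitted over 12 libraries. Alternatives were DESeq2 1.42.0 with its own size factors, those size factors in edgeR, library totals in place of TMM (added after seeing the data), no filter, a minimum mean of 5 CPM, an adjusted p under 0.01, an effective-length offset, coding transcripts only, all HEK293T libraries in the fit, the replicate number as a block and each library left out.

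Depth was 32705684 to 37929970 estimated reads a library. The labels do not say that the 3 libraries of a group came from separate cultures, so the spread behind each p-value is that between these libraries alone and could be technical. No pair of libraries agreed within sampling noise.

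Named genes are POLR3G, POLR3GL and MAF1, members of each list with the smallest p, and genes whose transcript shares moved most. They include the protein-coding genes averaging at least 5 CPM with the largest rise and fall. Those had to have reads in every library, a standard symbol, no overlap between groups and the same call under the effective-length offset. Not every gene that the rule names is given. Genes named outside that rule are marked. The comparison and the gene lists were chosen with earlier results of these data known. Tables and figures were made with Python 3.11.15, numpy 2.4.6, pandas 2.3.3 and matplotlib 3.10.9, and the fits were tested on simulated data. Sequences came from GENCODE release 29 transcripts and RefSeq promoter windows.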

Additional observations from a re-analysis of the deposited data

Results flagged for a closer look

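The response to the POLR3G ASO and that to the POLR3G siRNA, each against its own control, differed in 27 named genes whose log2 fold changes had opposite signs with both agents called, by a test of the difference itself in edgeR's fit of 12 libraries. The values below are the ASO log2 fold change minus that of the siRNA. Higher with the ASO and lower with the siRNA were ANKRD1 (4.52), DDIT3 (2.62), JUND (2.30), ATF3 (2.16), PPP1R15A (1.5), DUSP1 (1.4), IER2 (1.30), NFKBIA (1.28) and MAFF (1.24), most of them early or stress genes. The same held for H2BC21 (2.70), TRNT1 (1.81), SNAPC5 (1.64), RGMA (1.60), HSPA8 (1.36) and POLDIP3 (0.46). Lower with the ASO and higher with the siRNA were RORB (-2.79), NFKB1 (-1.96), POLA1 (-1.15), EIF2S3 (-0.93), ACTG1 (-0.85), HOXC4 (-0.85), TUBA1B (-0.79), RPS15 (-0.76), RPS4X (-0.71), RPL36 (-0.67), RPS3 (-0.50) and RPLP1 (-0.32). Both responses have their own control cells, and the cause of the differences was not tested.

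Reads on transcripts without a match in the annotation made up 9.50% of a library with the POLR3G ASO on average, against 8.61% with the scrambled ASO, and the ranges of the groups did not overlap. What these transcripts are was not tested.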

How the results depend on the processing

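Of 102 named genes run through the alternatives, 90 kept their direction and their side of the threshold under all of them, and 1594 of the 1625 alternative values for the 102 did. Many of these genes were chosen by a small p or by a call under the effective-length offset, so the choice itself sets part of that stability. The log2 fold change reversed in 3: TRNT1 gave -2.271 with coding transcripts only, and with the effective-length offset KMT2D gave 0.007 and POLDIP3 gave -0.105. The counts of genes higher and lower stayed within 1.5 times of 5890 and 5823 under every alternative. The count of transcripts higher, 8171, came to 3698 at an adjusted p under 0.01, 4676 at a mean of at least 5 CPM and 3956 with the replicate block. The count of transcripts lower, 6946, came to 3469, 4311 and 4114 under the same settings and to 4282 with library totals. Genes with changed transcript usage, 470, came to 984 with limma and 249 at a mean of at least 5 CPM, where fewer transcripts were tested. Leaving out each library in turn gave 5526 to 5748 genes higher, 5502 to 5643 genes lower, 4897 to 6019 transcripts higher, 5008 to 5635 transcripts lower, 409 to 471 genes with changed usage and 11208 to 11422 genes with differing responses to ASO and siRNA. Deviations of libraries with the same replicate number correlated at 0.057, 0.057 and 0.004, and those with different numbers at -0.067 to 0.013. With 3 libraries a group these values cannot settle whether the numbers pair the libraries. With the replicate block 5756 genes were higher and 5769 lower. For other changes the cause was not tested. Of 1952 alternative counts of list members, 1775 stayed within 1.5 times. Genes and transcripts under about 1 CPM rest on few reads, and shares of single transcripts carry Salmon's estimation error, which the files do not give.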
